A study of Sus scrofa with 8 samples.

Results

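A set of 8 genes of adipokine signalling and lipid transfer was followed in pig limb muscle, made up of the adipokines ADIPOQ, LEP and RARRES2, the adiponectin receptors ADIPOR1, ADIPOR2 and CDH13 (T-cadherin), the phospholipid transfer protein PLTP and the fatty acid binding protein FABP4. They were found by gene symbol in the platform's annotation and are read by 11 probe sets, of 6765 named genes and 23935 probe sets on the array. All 8 were measured. They were chosen by gene family together with the measured log2 differences between corticosteroid and control arrays in an earlier look at the same arrays, so the group differences given for them are descriptions and not tests. A probe set is called dim where its mean over the 8 arrays lay at or below the 40th percentile, a log2 signal of 5.272. By this rule 9 of the 11 probe sets were tested and 2 were dim, the second probe sets of LEP and PLTP.

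The tissue, a thigh muscle (biceps femoris), came from female domestic piglets in a porcine intensive care model of acute quadriplegic myopathy, with 1 Affymetrix array per sample. The 4 corticosteroid arrays came from piglets sedated with isoflurane, mechanically ventilated for 5 days and given hydrocortisone, a glucocorticoid, as bolus doses. The 4 control arrays came from piglets with the same sedation and ventilation. Both groups received morphine, ketamine, glucose and prophylactic antibiotics. For the controls the protocol additionally gives Escherichia coli endotoxin, infused at 36 µg/kg/h for 1 h, which their source label does not mention. The protocols count 8 corticosteroid piglets, averaging 26.4 kg, and 4 control piglets, averaging 25.5 kg. The design text adds a neuromuscular blocker, pancuronium, without saying which piglets received it. Endotoxin, blocker and processing batch therefore cannot be told apart from the group. Nothing states that each array is a separate animal, so errors and p-values cover only the variation among these samples.

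Adipokines are hormones that fat cells release. Adiponectin, the product of ADIPOQ, acts on muscle through the receptors ADIPOR1 and ADIPOR2, which lead to AMP-activated kinase, and it is held at the surface of endothelial, smooth muscle and muscle cells by T-cadherin, a cadherin with a lipid anchor in place of a cytoplasmic tail. Chemerin, made from RARRES2, is both an adipokine and an attractant for immune cells. PLTP moves phospholipids between lipoproteins in plasma, and FABP4 carries fatty acids inside fat cells, capillary endothelium and macrophages.

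The deposited table lists the corticosteroid values in another row order than the control values, and they were re-assigned to the probe IDs sorted as text with full stops ignored. Over the 9389 probe sets that this moves, r between the group means, across probe sets, was 0.9888 after re-ordering and 0.0997 as deposited. The probe sets of ADIPOQ, RARRES2, ADIPOR1, CDH13 and PLTP keep their row, so the values below are the deposited ones. Those of LEP, ADIPOR2 and FABP4 move, and their corticosteroid values rest on this order. The same holds for many other genes given below, among them PTPN1, APPL2, TNNC2, RGS5, LEPROT, JAK2, GPIHBP1, APOE, MYL2, TNNC1, HBB and C1QA. All 14 measured muscle fibre markers were above the filter, with a summed linear signal of 125000 to 135000 on corticosteroid arrays and 116000 to 138000 on control arrays. Control replicate 2 stood apart in macrophage markers. Their median level, centred per gene on the 8 arrays, was 1.79 log2 units there, against -0.43 to -0.04 on the other 3 control arrays.

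In the fit across all probe sets (limma, corticosteroid minus control), 0 of 14361 had an adjusted p under 0.05 (0%), and none of the 9 tested probe sets of these genes did. The adjusted p was 0.469 for CDH13, RARRES2 and the brighter PLTP probe set, which equals the smallest of the whole fit, and 0.569 to 0.996 for the other 6. Without adjustment, 1363 probe sets had a p under 0.05 (9.49%), 687 higher (4.78%) and 676 lower (4.71%). The groups did not overlap for 798 probe sets (5.56%), the 4 corticosteroid arrays lying above all 4 controls for 438 (3.05%) and below them for 360 (2.51%). Among these genes the tested probe sets of CDH13, RARRES2 and PLTP did not overlap, 3 of 9, and nothing is read from that count because the genes were listed with these differences known.

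**Figure D1:**
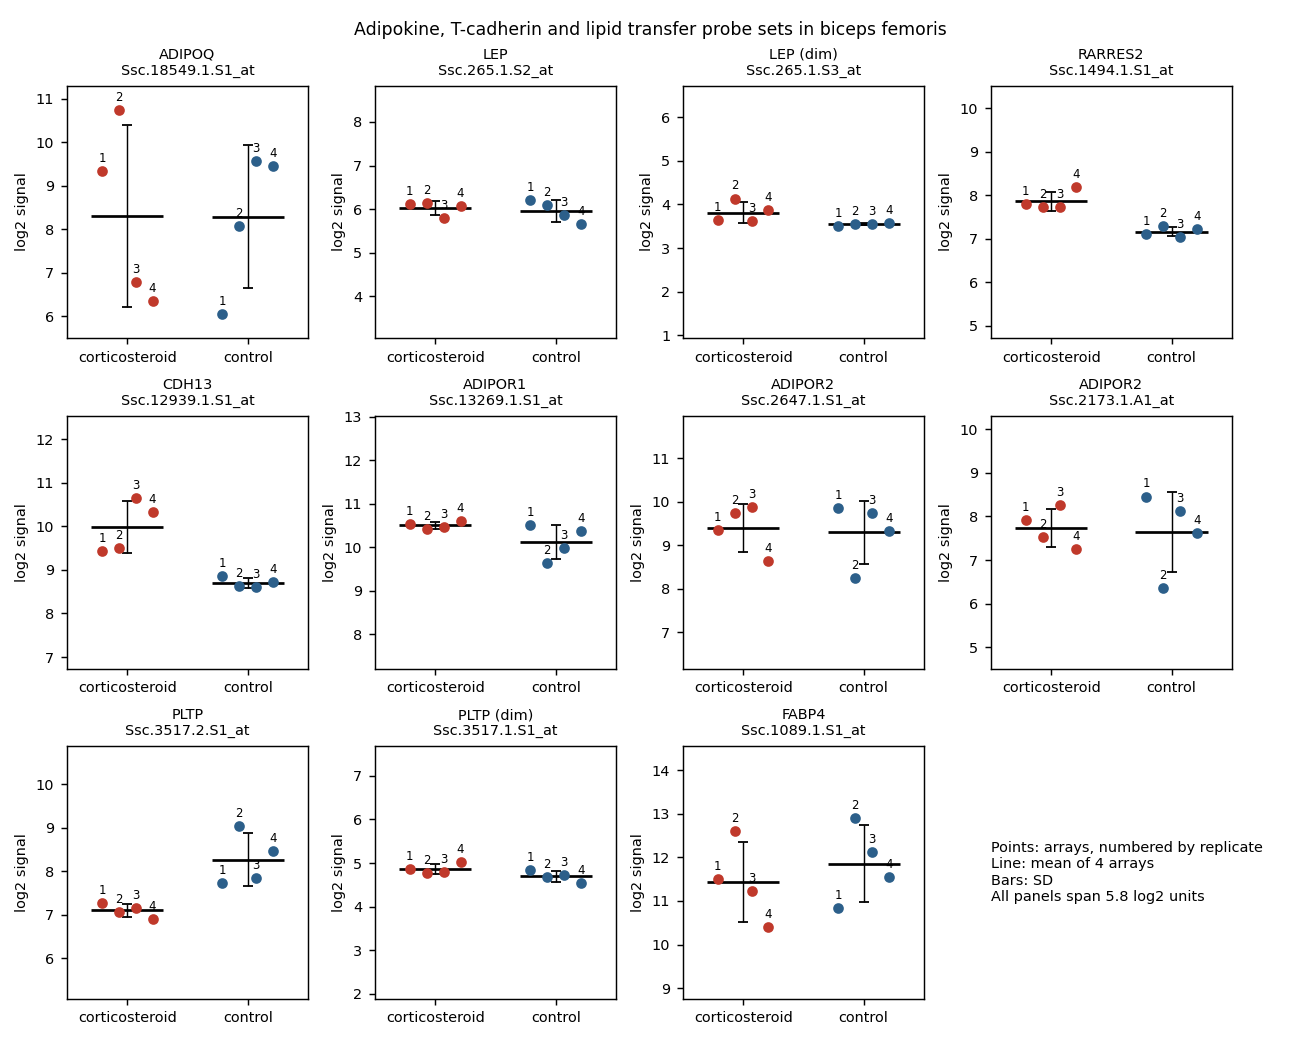
Log2 signal (vertical axis, 5.8 log2 units in each panel) of the 11 probe sets on 4 corticosteroid and 4 control arrays, numbered by replicate, with the mean and SD of each group. The groups are apart for CDH13, RARRES2 and the brighter PLTP probe set, and ADIPOQ covers 4.70 log2 units within the 8 arrays.

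Among the ligands, chemerin had higher levels with corticosteroid, while adiponectin varied widely within both groups and leptin lay close to the filter. RARRES2 had log2 levels of 7.81, 7.72, 7.74 and 8.19 on the corticosteroid arrays, against 7.12, 7.30, 7.04 and 7.22 on the control arrays. The lowest treated array lay 0.43 log2 units above the highest control. The difference was 0.70 (SE 0.17, 95% interval 0.32 to 1.07), a ratio of 1.62. RARRES2 varied little within the groups: its pooled SD of 0.174 was larger than that of only 13.8% of the tested probe sets. Of the chemerin receptors, GPR1 and CCRL2 were dim. CCRL2 had a mean log2 level of 3.75 with corticosteroid and 4.06 in controls, a difference of -0.31 (SE 0.20). Its control levels were 3.97, 4.74, 3.64 and 3.89, with control replicate 2 the highest, against 3.65 to 3.90 with corticosteroid.

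ADIPOQ had almost equal group means and one of the widest spreads on the array. Its log2 levels were 9.33, 10.75, 6.78 and 6.35 on the corticosteroid arrays, against 6.05, 8.07, 9.57 and 9.46 on the control arrays. High and low arrays occurred in both groups. The highest and the lowest of the 8 arrays differed by 4.70 log2 units, a ratio of 26.0, and the pooled SD of 1.88 exceeded that of 99.9% of the tested probe sets. The difference between the group means was 0.02 (SE 1.07), and its 95% interval of -2.37 to 2.41 includes a more than 4-fold change in either direction. Without corticosteroid replicate 2 the difference was -0.80, and without corticosteroid replicate 4 it was 0.67.

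LEP had log2 levels of 6.12, 6.14, 5.79 and 6.07 with corticosteroid, against 6.22, 6.09, 5.86 and 5.65 in controls at its brighter probe set. The groups overlapped and the difference was 0.08 (SE 0.16, 95% interval -0.29 to 0.45). Its dim probe set, at a mean of 3.68, read 3.63, 4.14, 3.62 and 3.86 with corticosteroid and 3.52, 3.54, 3.56 and 3.58 in controls. There the groups were apart by 0.04 log2 units, the difference being 0.26 (SE 0.11). The deviations of the LEP probe sets from their group means correlated with r = 0.205 over the 8 arrays (rho = -0.024), so one does not repeat the order of the other. The leptin receptor LEPR was dim too, at 3.16 with corticosteroid and 3.25 in controls.

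T-cadherin showed the largest difference of the 8 genes. CDH13 had log2 levels of 9.44, 9.51, 10.66 and 10.33 on the corticosteroid arrays, against 8.86, 8.63, 8.61 and 8.72 on the control arrays. The control arrays lay within 0.25 log2 units of each other, while the treated arrays fell into a lower pair (replicates 1 and 2) and a higher pair (replicates 3 and 4), 1.22 log2 units from end to end. The mean was 9.98 ± 0.60 with corticosteroid and 8.71 ± 0.11 in controls (SD, n = 4 each). The difference was 1.28 (SE 0.28, 95% interval 0.64 to 1.91), a ratio of 2.43. Leaving out corticosteroid replicate 3 gave 1.05, and leaving out corticosteroid replicate 1 gave 1.46.

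ADIPOR1, the receptor of adiponectin most associated with muscle, had log2 levels of 10.52, 10.42, 10.46 and 10.59 with corticosteroid, against 10.51, 9.64, 9.98 and 10.38 in controls. The treated arrays were within 0.17 log2 units of each other, and control replicate 1 lay among them. Control replicates 2 and 3 were the lowest. The difference was 0.37 (SE 0.21, 95% interval -0.09 to 0.84), and it was 0.21 without control replicate 2.

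ADIPOR2 was read by a pair of probe sets that gave the same picture, with no group difference beyond the spread. The brighter one had log2 levels of 9.35, 9.73, 9.88 and 8.64 with corticosteroid, against 9.87, 8.26, 9.74 and 9.33 in controls. The other read 7.91, 7.54, 8.26 and 7.25 with corticosteroid, against 8.46, 6.36, 8.12 and 7.63 in controls. Control replicate 2 and corticosteroid replicate 4 were the lowest arrays of their groups at both. The differences were 0.10 (SE 0.39, 95% interval -0.77 to 0.98) and 0.10 (SE 0.43, 95% interval -0.86 to 1.06). The deviations from the group means correlated between the probe sets with r = 0.91 (rho = 0.905, 8 arrays). Both estimates were below 0 without control replicate 2, at -0.24 and -0.33.

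**Figure D2:**
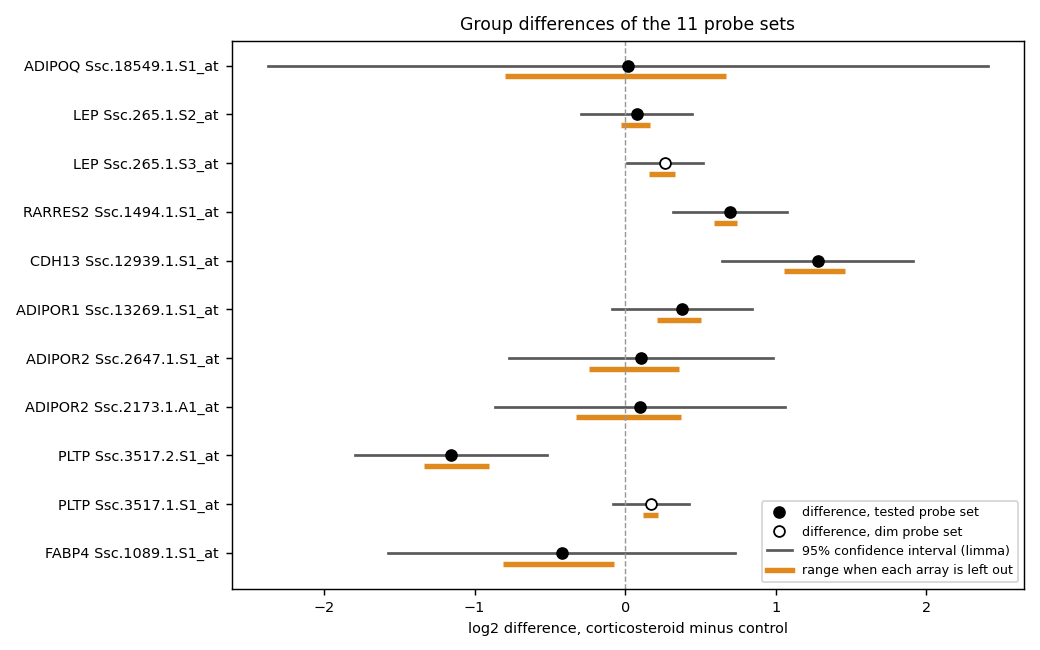
Log2 difference, corticosteroid minus control, of the 11 probe sets (horizontal axis), with the 95% interval from limma and the range when each array is left out in turn. The CDH13 value is 1.28 and the brighter PLTP value -1.16, and the ADIPOQ interval runs from -2.37 to 2.41.

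PLTP was lower with corticosteroid at its brighter probe set. The log2 levels there were 7.27, 7.07, 7.15 and 6.91 on the corticosteroid arrays, against 7.72, 9.03, 7.84 and 8.45 on the control arrays. The highest treated array lay 0.45 log2 units below the lowest control. The treated arrays were close together (SD 0.15) and the controls were spread (SD 0.61), with control replicate 2 the highest. The difference was -1.16 (SE 0.28, 95% interval -1.80 to -0.52), a ratio of 0.448, and it was -0.90 without control replicate 2. The dim PLTP probe set did not repeat this. It read 4.87, 4.78, 4.79 and 5.02 with corticosteroid and 4.84, 4.67, 4.72 and 4.55 in controls, a difference of 0.17 (SE 0.11), and the probe sets' deviations correlated with r = -0.539 (rho = -0.643, 8 arrays). The averaged probe sets differed by -0.49.

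Because PLTP is also made by macrophages, the levels of macrophage markers are set beside it. Of 10 tested markers 9 had lower means with corticosteroid, with 0 at an unadjusted p under 0.05 and a median log2 difference of -0.58, which became -0.07 when control replicate 2 was left out and -0.37 when corticosteroid replicate 4 was. The complement genes C1QC and C1QA differed by -0.57 (SE 0.32) and -0.39 (SE 0.23). The summed linear signal of the 12 measured markers was 841 to 1390 on corticosteroid arrays and 1080 to 5180 on control arrays. The deviations of PLTP from its group means correlated with the median of the 10 markers at r = 0.77 (rho = 0.452, 8 arrays). That r was 0.286 without control replicate 2. It was 0.89 without the 2 arrays whose marker median lay farthest from its group mean, control replicates 2 and 4. The marker medians were -0.43 to -0.04 on control replicates 1, 3 and 4 and -0.74 to -0.15 on the corticosteroid arrays. ITGAM and SIGLEC1 were dim in this list. The part of macrophages in the PLTP difference was not tested.

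**Figure D3:**
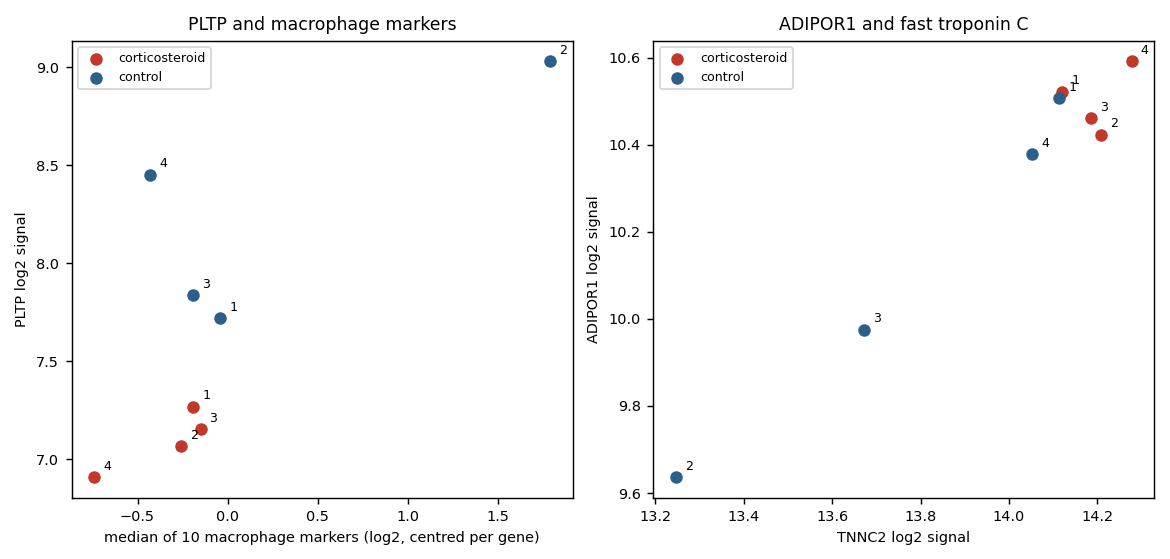
Left, PLTP log2 signal (vertical) against the median of 10 macrophage markers centred per gene (horizontal, log2). Right, ADIPOR1 log2 signal against that of fast troponin C, TNNC2, with numbers for the replicates. Control replicate 2 is at 1.79 and 9.03 on the left and is the lowest array for both genes on the right.

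FABP4 had log2 levels of 11.49, 12.61, 11.24 and 10.41 with corticosteroid, against 10.84, 12.90, 12.13 and 11.56 in controls. The groups overlapped over most of their range. The difference was -0.42 (SE 0.51, 95% interval -1.57 to 0.73), and it was -0.07 without control replicate 2. The pooled SD of 0.893 exceeded that of 96.7% of the tested probe sets.

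ADIPOQ and FABP4, both known from fat cells, varied together within the groups, and both varied with the medians of adipocyte and of endothelial markers. Correlations with marker lists were computed for all 11 probe sets (77 in all), as were the 55 between probe sets, and those of a size above 0.7 are given as descriptions. Their deviations from the group means correlated with r = 0.724 (rho = 0.738, 8 arrays). Against the median of 16 other adipocyte markers ADIPOQ gave r = 0.863 (rho = 0.833) and FABP4 r = 0.787 (rho = 0.81). Without the 2 arrays whose marker median lay farthest from its group mean, corticosteroid replicates 2 and 3, these were 0.776 and 0.79. The median of 16 endothelial markers gave r = 0.734 for ADIPOQ (rho = 0.595) and r = 0.726 for FABP4 (rho = 0.643), about as large as the r between the genes themselves. With single markers FABP4 had an r above 0 for 11 of 16 adipocyte and 12 of 16 endothelial ones. The median r was 0.485 and 0.256, and PNPLA2 (-0.616) and CLDN5 (-0.461) ran most against it. The arrays are the points, and each shares its RNA and its processing between the genes. In bulk muscle, more fat cells and more RNA per fat cell cannot be told apart.

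Single markers showed which arrays these were. The fat cell regulator PPARG had log2 levels of 6.33, 7.71, 5.23 and 5.24 with corticosteroid and 5.29, 6.44, 6.17 and 5.65 in controls. Lipoprotein lipase (LPL) read 9.95, 10.92, 8.76 and 8.56 with corticosteroid and 9.45, 10.67, 10.12 and 9.70 in controls. Both were highest on corticosteroid replicate 2 and low on corticosteroid replicates 3 and 4 and control replicate 1, the arrays of lowest ADIPOQ. PPARG (r = 0.828), LPL (0.795), ELOVL6 (0.752) and PCK1 (0.738) were among those that followed ADIPOQ most closely, and were singled out after their values were seen. Over the 16 markers 13 had an r above 0 with ADIPOQ, 7 had an r above 0.5 and the median r was 0.43. The fatty acid synthesis genes SCD (0.045) and FASN (0.078) and the acyltransferase GPAM (0.118) were near 0, and AGPAT2 (-0.281) was below it. The lipases LIPE (0.387) and PNPLA2 (-0.284) and the serum protease CFD (-0.381) followed it less or ran against it.

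**Figure D4:**
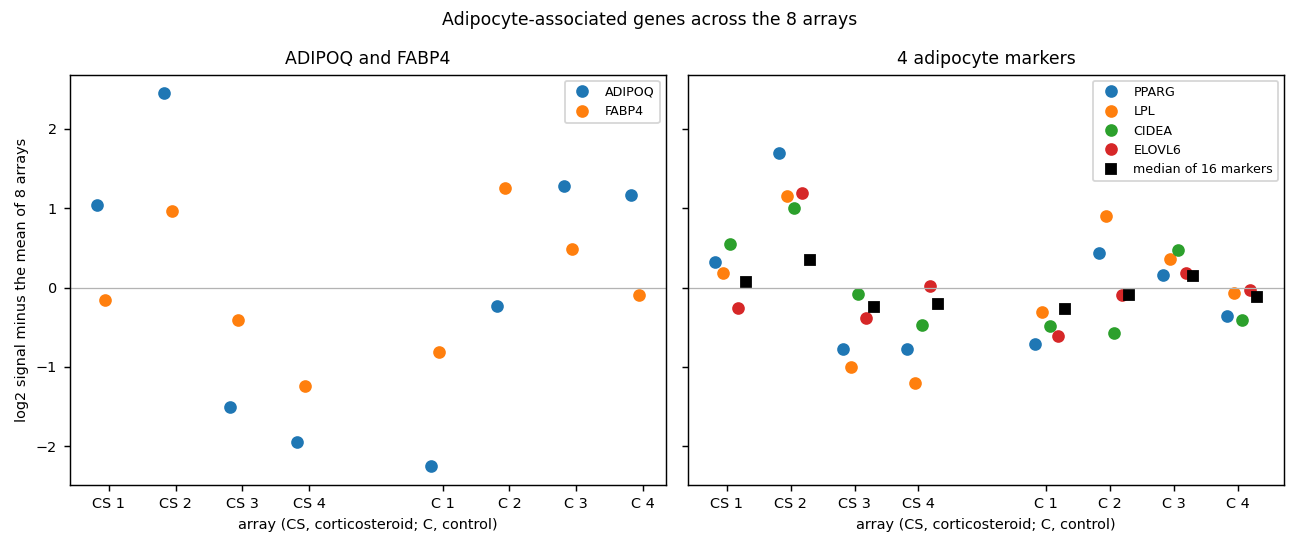
Log2 signal minus the mean of the 8 arrays (vertical axis) for ADIPOQ and FABP4 (left) and for 4 adipocyte markers with the median of 16 markers (right), by array. Corticosteroid replicate 2 is high and corticosteroid replicates 3 and 4 and control replicate 1 are low in ADIPOQ, PPARG and LPL.

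CDH13 ran against ADIPOQ and the adipocyte marker median within the groups. Its deviations correlated with those of ADIPOQ at r = -0.784 (rho = -0.714, 8 arrays) and with the adipocyte marker median at r = -0.793 (rho = -0.833), or -0.565 without corticosteroid replicates 2 and 3. Over the 16 single adipocyte markers the median r was -0.292 and 2 were above 0, PNPLA2 giving 0.393. The control arrays of CDH13 lay within 0.25 log2 units of each other, so these r rest mostly on the treated arrays. The treated arrays of highest CDH13, replicates 3 and 4, were those of lowest ADIPOQ. Against the median of 16 endothelial markers CDH13 gave r = -0.756 (rho = -0.81), although those medians covered only -0.12 to 0.10 log2 units over all arrays.

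The markers of endothelium, where T-cadherin and FABP4 are both found, had group means on either side of 0. Of 16 tested markers 8 had higher and 8 lower means with corticosteroid, with a median difference of 0.00, 2 higher at an unadjusted p under 0.05 and 0 past the adjusted threshold. Those were thrombomodulin (THBD), with a difference of 0.77 (SE 0.21), and RAMP2, with 0.80 (SE 0.30). VWF differed by 0.35 (SE 0.18) and CLDN5 by 0.46 (SE 0.25). KDR, FLT1 and SELE were dim. KDR differed by -0.60 (SE 0.22) without overlap of the groups, and FLT1 and SELE by 0.02 each. The summed linear signal of the list was 3070 to 3750 on corticosteroid arrays and 2930 to 3380 on control arrays. Smooth muscle and pericyte markers had 6 of 7 lower means (median -0.32, or -0.11 without control replicate 2 and -0.18 without control replicate 3), among them RGS5 at -0.71 (SE 0.25), MCAM at -0.34 (SE 0.20) and PDGFRB at -0.34 (SE 0.30), while TAGLN differed by 0.43 (SE 0.32), with sums of 3280 to 3620 on corticosteroid arrays and 3170 to 6760 on control arrays. Their part in the CDH13 difference was not tested.

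ADIPOR1 varied with fast muscle fibre genes within the groups, and TNNT3 and TNNC2 also had higher means with corticosteroid. The difference was 0.66 for TNNT3 (SE 0.21) and 0.43 for TNNC2 (SE 0.17), beside 0.37 for ADIPOR1, and their part in the ADIPOR1 difference was not tested. Against the median of 14 fibre markers its deviations gave r = 0.838 (rho = 0.619, 8 arrays), which was 0.485 without control replicates 1 and 2. With fast troponin C (TNNC2) and fast troponin T (TNNT3) r was 0.975 each, and with slow troponin T (TNNT1) it was -0.792. The slow-fibre genes MYH7, TNNC1 and MYL2 gave -0.522, -0.519 and -0.448. Values near 0.975 are usual, as the highest r of the median gene with any other gene was 0.977. The treated arrays of ADIPOR1 lay within 0.17 log2 units of each other, so these r rest mostly on the controls. TNNC2 read 14.12, 14.21, 14.18 and 14.28 with corticosteroid and 14.11, 13.25, 13.67 and 14.05 in controls. Control replicates 2 and 3 were thus the low arrays for ADIPOR1 and TNNC2 alike. ADIPOR2 gave r = 0.704 (rho = 0.833) with the fibre markers, and 0.33 without control replicates 1 and 2, and its other probe set gave r = 0.739 (rho = 0.738).

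The receptors also ran against markers of other cells. The largest r with any list was that of the dimmer of the tested ADIPOR2 probe sets with 12 fibroblast and matrix markers, at -0.938 (rho = -0.881), where the brighter one gave -0.748 (rho = -0.643). ADIPOR1 gave r = -0.859 with 7 smooth muscle and pericyte markers (rho = -0.762) and r = -0.787 with 10 macrophage markers (rho = -0.524). The dimmer ADIPOR2 probe set gave r = -0.711 with the macrophage markers (rho = -0.286). Control replicate 2, the highest array for the macrophage and fibroblast medians at 1.79 and 0.71, was the lowest control for both receptors. Between the genes, RARRES2 and the brighter ADIPOR2 probe set gave r = -0.838 (rho = -0.595), ADIPOR1 and FABP4 r = -0.782 (rho = -0.833), and the dimmer ADIPOR2 and the brighter PLTP probe set r = -0.776 (rho = -0.548).

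The pathway around the receptors was described from lists of genes by function, each gene by its brightest probe set. Over all 5406 named genes tested, 9.17% had an unadjusted p under 0.05, 54.0% had a higher mean with corticosteroid and the median log2 difference was 0.03. Of 21 tested genes of adiponectin signalling and assembly, 15 had higher means and 6 lower, with a median of 0.25. That median was 0.13 without control replicate 2 and 0.11 with array weights. APPL2, an adaptor that binds the adiponectin receptors, was the 1 gene at an unadjusted p under 0.05, with log2 levels of 8.10, 8.63, 8.93 and 8.85 with corticosteroid against 7.90, 7.93, 8.18 and 7.998 in controls. Its groups overlapped by 1 array, and the difference was 0.63 (SE 0.21, limma adjusted p = 0.479). The AMP-activated kinase subunit PRKAA2 differed by 0.71 (SE 0.39), the glucose transporter SLC2A4 by 0.53 (SE 0.29) and ERO1A, an oxidase of the endoplasmic reticulum, by -0.40 (SE 0.24).

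Of 14 tested adipokines and receptors, 9 had higher means and 5 lower, and the 2 at an unadjusted p under 0.05 were CDH13 and RARRES2. The list median of 0.08 was 0.002 without control replicate 2, and without the genes described above 8 remained with a median of -0.05. CFD differed by 0.44 (SE 0.22), LEPROT, a regulator of leptin receptor trafficking, by -0.33 (SE 0.19), LEPROTL1 by -0.25 (SE 0.26) and the retinol carrier RBP4 by -0.50 (SE 0.43). All 6 tested genes of leptin signalling had lower means with corticosteroid (median -0.32), 2 of them at an unadjusted p under 0.05. Their median level, centred per gene, was 0.673 on control replicate 2, against 0.015 to 0.075 on the other controls. It was -0.212 to -0.134 on the treated arrays. STAT3, named after its values were seen, differed by only -0.09 (SE 0.18) and was highest on control replicate 2. The tyrosine phosphatase PTPN1, which dampens leptin and insulin signals, read 7.36, 7.05, 6.96 and 6.80 with corticosteroid against 7.79, 8.43, 8.21 and 7.51 in controls, a difference of -0.94 (SE 0.23). The adaptor GRB2 differed by -0.74 (SE 0.26) and the kinase JAK2 by -0.31 (SE 0.20). The limma adjusted p was 0.469 for PTPN1 and 0.479 for GRB2.

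Genes of lipid transfer and lipoproteins had higher means for 11 of 15 tested members (median 0.16, or 0.09 without control replicate 4), PLTP being 1 of the 4 lower ones. The sterol-sensing receptor NR1H3, which is known to drive PLTP transcription, read 9.46, 9.04, 8.86 and 9.53 with corticosteroid against 8.65, 8.38, 8.44 and 8.86 in controls. The difference was 0.64 (SE 0.21, limma adjusted p = 0.479), beside -1.16 for the brighter PLTP probe set. The part of NR1H3 in the PLTP difference was not tested. GPIHBP1, the anchor of lipoprotein lipase on capillaries, differed by 0.51 (SE 0.23), apolipoprotein E (APOE) by 0.56 (SE 0.36) and the receptor VLDLR by 0.40 (SE 0.27).

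Fatty acid binding and uptake genes had lower means for 7 of 11 tested members (median -0.34, or -0.17 over the 10 other than FABP4). The heart and muscle form FABP3 differed by -1.04 (SE 0.34), FABP5 by -0.82 (SE 0.40), the caveolin CAV2 by -0.56 (SE 0.25) and the fatty acid transporter SLC27A1 by 0.40 (SE 0.24). FABP3 was the 1 gene of this list at an unadjusted p under 0.05. Single arrays decided the list median, which became -0.10 when corticosteroid replicate 4 was left out and 0.01 when control replicate 2 was. FABP1, FABP2, FABP6 and FABP7 were dim.

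Of 7 tested cadherins and catenins 4 had higher and 3 lower means (median 0.05, or -0.04 over the 6 other than CDH13). At an unadjusted p under 0.05, CDH13 was the 1 higher gene and the 1 lower gene was CDH11, a cadherin of mesenchymal cells, at -1.40 (SE 0.61). CDH11 read 4.08, 4.24, 5.32 and 6.04 with corticosteroid against 5.40, 7.92, 6.59 and 5.39 in controls. Its groups overlapped, and control replicate 2 was the highest array. Beta-catenin (CTNNB1) differed by 0.24 (SE 0.17), CDH17 by 0.16 (SE 0.14) and endothelial cadherin (CDH5) by -0.12 (SE 0.18), and plakoglobin (JUP) by -0.12 (SE 0.12). The list median was -0.06 without control replicate 3 and 0.18 without control replicate 1.

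**Figure D5:**
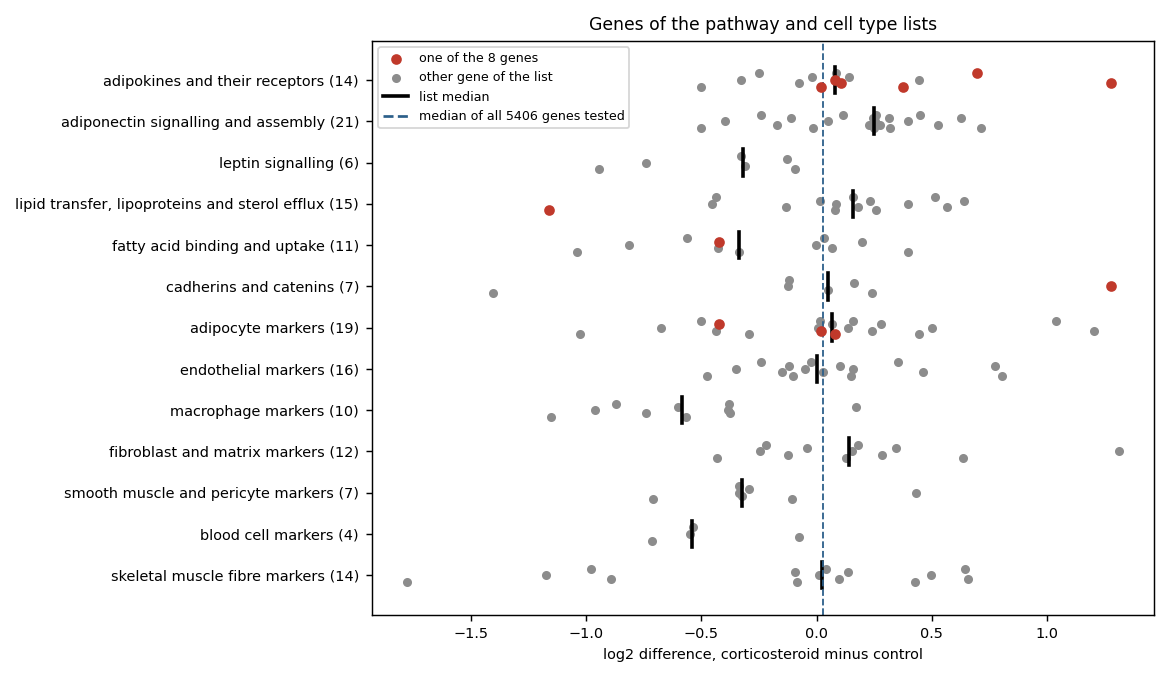
Log2 differences, corticosteroid minus control (horizontal axis), of the tested genes of 13 lists, with the number tested in brackets, the list medians (black bars) and the median of all 5406 genes (dashed). CDH13 at 1.28 and PLTP at -1.16 lie at the ends of their lists.

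The remaining marker lists give RNA levels of cell type markers, and the cell make-up of the samples was not measured. Of 19 tested adipocyte markers 13 had higher means and 6 lower (median 0.06, or -0.07 without corticosteroid replicate 2 and 0.20 without corticosteroid replicate 3), with sums of 7410 to 16300 on corticosteroid arrays and 7440 to 12400 on control arrays. PNPLA2 at 1.04 (SE 0.41) and LIPE at 1.203 (SE 0.51), lipases that muscle also makes, were the 2 at an unadjusted p under 0.05, and GPAM differed by -0.29 (SE 0.14). Control replicate 2 was the lowest array for both lipases. PNPLA2 read 8.87 there against 10.24 to 11.04 on the other controls, and LIPE 6.65 against 7.53 to 8.59. CEBPA and ACACA were dim. Fibroblast and matrix markers had 7 of 12 higher means (median 0.14), led by the matrix protein POSTN at 1.31 (SE 0.34), with sums of 8450 to 15300 on corticosteroid arrays and 8500 to 21200 on control arrays. MFAP5 differed by 0.64 (SE 0.31), DPT by 0.34 (SE 0.37) and DCN by 0.28 (SE 0.31). Single arrays set that median and its sign: it was 0.44 without control replicate 2, -0.01 without control replicate 3, 0.03 without control replicate 1, 0.002 without corticosteroid replicate 2 and 0.03 without corticosteroid replicate 4. All 4 tested blood cell markers had lower means (median -0.54, or -0.06 without control replicate 3), among them haemoglobin beta (HBB) at -0.55 (SE 0.22) and the T cell gene CD3D at -0.08 (SE 0.15), with sums of 365 to 469 on corticosteroid arrays and 485 to 1150 on control arrays. Muscle fibre markers had 8 of 14 higher means (median 0.03, or -0.03 without control replicate 2), with 2 higher and 4 lower at an unadjusted p under 0.05. The 2 higher ones were the fast genes TNNT3 and TNNC2, and the 4 lower ones were slow-fibre genes, which the median near 0 does not show. TNNT1 differed by -1.78 (SE 0.40), MYH7 by -1.17 (SE 0.32), MYL2 by -0.98 (SE 0.28) and TNNC1 by -0.89 (SE 0.35), with limma adjusted p of 0.469 to 0.484.

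For each of the 8 genes, the genes of most similar pattern were taken by the correlation of deviations from the group means over the 8 arrays. With 8 arrays and 5406 genes the highest such r was 0.977 at the median gene, so high values are usual. CDH13 was closest to SMIM22 (r = 0.96), TMEM80 (0.929) and LOC100518620 (0.921), a best match below that of most genes. RARRES2 was closest to FOXRED1 (0.987), CHCHD2 (0.966) and ANKRD39 (0.962), and PLTP to C4BPA (0.994), HPRT1 (0.98) and MCF2L (0.969). ADIPOQ was closest to GART (0.975), STT3B (0.967) and SNX11 (0.953), FABP4 to MGST1 (0.991), GNPNAT1 (0.977) and TBCA (0.976), and LEP to HIRIP3 (0.964), TCL1B (0.963) and AZGP1 (0.961). ADIPOR1 was closest to CCDC127 (0.976), TNNC2 and TNNT3, and ADIPOR2 to METAP2 (0.963), EIF2A (0.958) and FKBP5 (0.957), a glucocorticoid-induced partner of the glucocorticoid receptor. C4BPA differed by -0.17 and SMIM22 by 0.83 between the groups.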

How the data were processed

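The authors deposited 1 log2 signal for each probe set and array (8 arrays), made with MAS5 per the submitters' processing notes. How the authors scaled the arrays and the genome build are not given in the sources used here. Array medians ran from 5.873 to 5.972, so no scaling was added. Corticosteroid columns were re-assigned to the probe IDs sorted without full stops, an order found from the values (0 tied IDs). The 64 reporter probe sets were left out. Symbols came from the platform's annotation (1 symbol for 10069 probe sets, 9961 found by gene ID in the current pig gene table). Probe sets with a mean above the 40th percentile were tested with limma 3.58.1 in R 4.3.3 (eBayes with an intensity trend, Benjamini-Hochberg at 0.05). The number of arrays limits the precision, the median SE being 0.219. The fit was tested on simulated data, but no outcome of that is given here, so nothing is drawn from it. Members, 13 gene lists and tests were chosen with earlier results of these data known. Named are all members, the 4 genes of smallest p per list and the 3 most similar genes per member, with a few others said to be chosen later or given as receptors or family members. Python 3.11.15, pandas 2.3.3, numpy 2.4.6 and matplotlib 3.10.9 prepared tables and figures. Alternatives were a replicate block, other scalings, filters, variance models and row orders, averaged probe sets and leaving out arrays.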

Additional observations from a re-analysis of the deposited data

Results flagged for a closer look

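In 8 of 132 groups of 4 arrays examined, 1 array lay far from the other 3 by Dixon's ratio (its gap over the whole range, set against the 95% critical value), where chance alone gives about 1 in 20. None was a probe set of the 8 genes. On control replicate 2, CD86 stood at 8.74 against 4.98 to 5.27 (ratio 0.923), AIF1 at 9.62 against 6.22 to 6.67 (0.866) and RGS5 at 10.83 against 10.16 to 10.24 (0.882). On control replicate 3, HBM stood at 8.51 against 6.17 to 6.29 (0.948), ALAS2 at 8.47 against 5.68 to 6.03 (0.874) and RBP4 at 7.71 against 5.92 to 6.11 (0.898). SLC27A1 read 6.28 on control replicate 1 against 5.50 to 5.57 on the other controls (0.91). HBB read 7.06 on corticosteroid replicate 4 against 7.67 to 7.80 on the other treated arrays (0.83).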

How the results depend on the processing

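No probe set was called at an adjusted p under 0.05 in limma (1363 at an unadjusted p under 0.05), and leaving out each array gave 0 to 1. The 1 call, without control replicate 3, was AKR1CL1 (-1.88), named after its value was seen. With the rows as deposited 5454 were called, 5119 of them at rows that the re-ordering moves. The count at an unadjusted p under 0.05 was 2160 without a filter, 6101 with the rows as deposited and 828 over unmoved rows only, and 892 (without corticosteroid replicate 4) to 1783 when each array was left out. It was 902 without control replicate 3. Groups did not overlap for 798 probe sets, for 1253 without a filter, 5464 as deposited, 470 over unmoved rows, 1677 without control replicate 2 and corticosteroid replicate 4, and 1048 to 1804 when each array was left out, fewer arrays separating more easily. With the rows as deposited ADIPOR2 differed by -5.29, FABP4 by -5.69 and LEP by -2.43, and with averaged probe sets PLTP by -0.49. CDH13 ranged from 1.05 to 1.46 over 20 alternative fits, RARRES2 from 0.59 to 0.74 and the brighter PLTP probe set from -1.34 to -0.84, each called only with the rows as deposited. The leading probe sets of ADIPOQ and ADIPOR2 changed sign in 4 alternatives each, and those of FABP4 and LEP in 2. The replicate block gave 0 calls and 1332 at an unadjusted p under 0.05. Same-numbered arrays correlated in their deviations by -0.246, 0.109, 0.105 and 0.053, so the numbers were not taken as pairs. With 4 arrays per group the intervals are wide, and the dim probe sets of LEP and PLTP give little signal to measure. Group and endotoxin cannot be told apart, and blocker and batch, not given per array, cannot be separated from the group.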
